A study of Nicotiana tabacum with 12 samples.

Results

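The levels of 3 tobacco genes of the SAUR family (small auxin up RNA) were followed across the seedlings of an AmMIXTA induction experiment, out of 45034 genes measured. They were taken by identifier: LOC107818257 and LOC107825512, both named auxin-induced protein 15A-like, and LOC107823924, named auxin-responsive protein SAUR68-like. Their names came from the authors' tables of genes higher on induction, which hold the pair of 15A-like genes at 4 h and the SAUR68-like gene at 48 h. The genes were thus chosen by their deposited fold and p at those times. The 4 h contrast of the 15A-like genes and the 48 h contrast of the SAUR68-like gene are given as descriptions with no test.

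SAUR genes encode small plant proteins, and many are among the first genes transcribed when auxin reaches a cell. In thale cress, auxin bound to TIR1/AFB receptors removes Aux/IAA repressors and frees auxin response factors, which switch many SAUR genes on. Some SAUR proteins of thale cress inhibit clade D phosphatases of type 2C, which keeps plasma membrane proton pumps active, acidifies the cell wall and lets expansins loosen it. The 15A class was first described from auxin-treated soybean hypocotyls, where its short-lived transcripts accumulate in elongating tissue.

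Polyadenylated RNA came from the aerial parts of Nicotiana tabacum seedlings, cultivar Petit Havana SR1, with 15 seedlings pooled in a collection. Induced seedlings received β-estradiol and were harvested at an age of 7 days, 4 h into treatment, or at an age of 9 days, 48 h into treatment. Non-induced controls were collected at the same ages. Every group carried the same stable transgene, AmMIXTA, a snapdragon MYB gene for conical petal cells, behind an estradiol-inducible promoter, and the study looked for early and later genes of glandular trichome formation on cotyledons that normally bear none. How many independent lines were used is not given in the sources used here. Estradiol-treated seedlings without the transgene and the level of AmMIXTA were not analysed here, so effects of estradiol and AmMIXTA cannot be told apart. Green tissue was looked for on 4 genes named as photosynthetic, 1 nuclear and 3 plastid-encoded. Their summed normalised value was 3190 to 3524 in induced and 3427 to 3934 in control libraries at 4 h. At 48 h it was 2207 to 2721 in induced and 2008 to 2383 in control libraries. With no root sample to compare, these sums cannot show that roots were absent.

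Each of the 4 groups had 3 libraries. Values are the authors' normalised values, in which each library has its own scaling factor over whole reads. Recovered reads, counted without genes that had an inflated entry (defined further down), numbered 12457701 to 30103266 per library, except in control replicate 1. It held 917871 at 4 h and 1240033 at 48 h. In that replicate 1 read was worth a normalised value of 0.697 at 4 h and 0.28 at 48 h, so all 3 SAUR genes rest on few reads there. Control replicates 2 and 3 at 48 h held the same reads in 42659 of 42659 genes and were counted as 1 sample, so n = 2 for that group. Nothing in the labels says that replicates are separate growths, so the spread behind a p-value may be technical. The 4 h and 48 h tables were scaled separately, so levels are compared between times only on a common scale, described further down.

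The 15A-like gene LOC107818257 was higher in induced than in control seedlings at 4 h. Its normalised values were 13.9, 9.85 and 13.0 in induced replicates 1, 2 and 3, against 6.27, 8.06 and 6.52 in control replicates 1, 2 and 3. Every induced library lay above every control library. The lowest induced library rested on 461 reads and the highest control library on 250, while control replicate 1 rested on 9. For those 9 reads the exact Poisson 95% interval, which covers counting error only, was 2.87 to 11.9 and reaches past induced replicate 2. The means were 12.2 ± 2.12 in induced and 6.95 ± 0.966 in control libraries (SD, n = 3 each). On the log2(value + 0.5) scale, which understates the change of low genes, the difference was 0.77 (SE 0.14).

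The second 15A-like gene, LOC107825512, had lower values and a difference of similar size. It stood at 8.17, 9.8 and 5.58 in induced replicates 1, 2 and 3, against 2.79, 4.12 and 4.26 in control replicates 1, 2 and 3. The groups did not overlap, although induced replicate 3, with 186 reads, came close to the controls. The means were 7.85 ± 2.13 in induced and 3.73 ± 0.815 in control libraries (SD, n = 3 each), a log2 difference of 0.97 (SE 0.19). In control replicate 1 the value rested on 4 reads, with an exact Poisson 95% interval of 0.759 to 7.14 that covers counting error only and reaches past induced replicate 3.

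The SAUR68-like gene LOC107823924 had overlapping values at 4 h. They were 1.48, 2.05 and 2.28 in induced replicates 1, 2 and 3, against 2.09, 2.61 and 1.21 in control replicates 1, 2 and 3. Both the highest and the lowest library were controls, and control replicate 1 held 3 reads. The means were 1.94 ± 0.411 in induced and 1.97 ± 0.709 in control libraries (SD, n = 3 each). The log2 fold change was 0.01 (SE 0.22, 95% interval -0.45 to 0.47), which did not pass the threshold (adjusted p = 0.999 by limma over all genes, 0.847 to 1 over its alternatives). The interval does not show that the gene was unaffected.

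**Figure D1:**
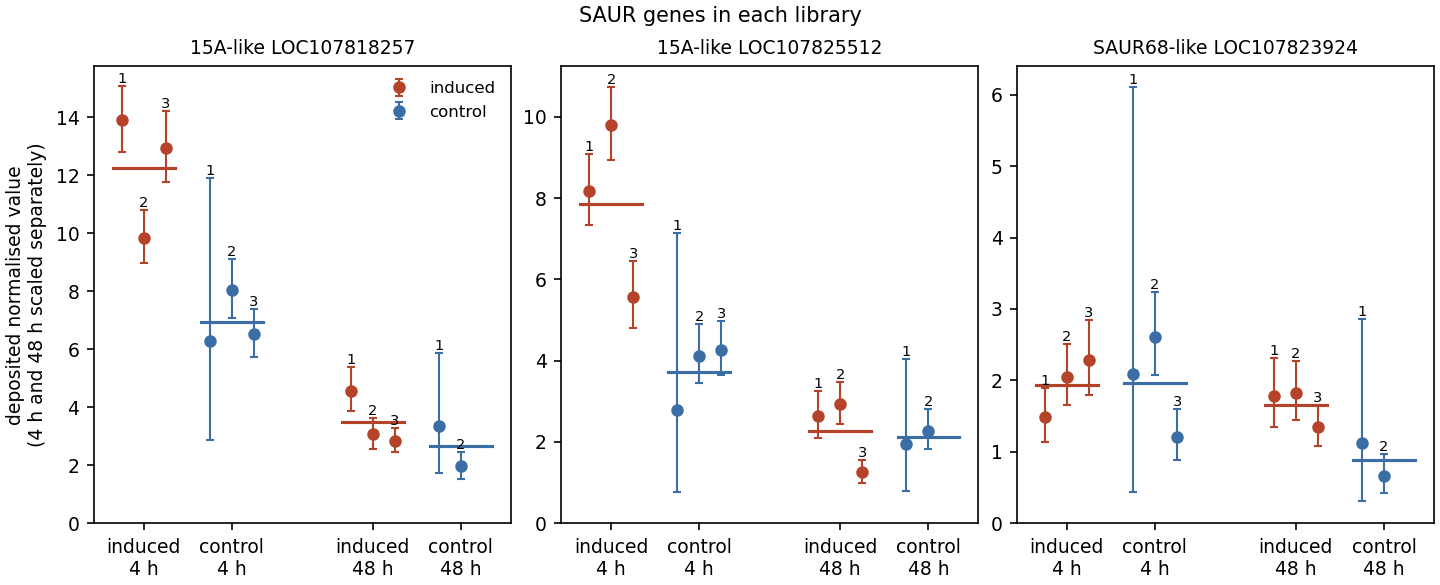
Deposited normalised value of each SAUR gene in every distinct library, with replicate numbers above the points and group means as lines. Bars are exact Poisson 95% intervals, which cover counting error only. Outside control replicate 1 most low counts were even, so a read need not be an independent molecule and bars may be too narrow. The vertical scale differs between panels. At 4 h the induced libraries of both 15A-like genes lie above their controls, while those of the SAUR68-like gene do so at 48 h; control replicate 1 has the widest interval for each gene at both times, and the repeated 48 h control is drawn once as replicate 2.

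At 4 h, 2 of the 3 genes thus had induced libraries above all controls, against 5.45% of the 37238 genes tested. As the 4 h contrast chose those 2 genes, nothing is read from that count. In the same libraries, 4.57% to 5.84% of induced and 6.57% to 7.4% of control reads fell on the plastid genome, and 0.165% to 0.195% of induced and 0.202% to 0.23% of control reads on the mitochondrial genome. The 9 genes matched by the root marker names, among them putrescine N-methyltransferases and quinolinate synthases of the nicotine pathway, had summed values of 70.5 to 97.2 in induced and 47 to 53 in control libraries at 4 h. Of these 9, 3 were called higher, against 0.352% of all genes tested that were called in either direction, and none was at 0 in any library. Their names come from the same tables of higher genes, some of them from that of 4 h, so nothing is read from the count called. The part of any of these measures in the SAUR values was not tested. In whole aerial parts, fewer cells of a type and less RNA per cell cannot be told apart.

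At 48 h the 15A-like genes no longer separated the groups, in libraries that had no part in choosing them. LOC107818257 had values of 4.57, 3.06 and 2.84 in induced replicates 1, 2 and 3, against 3.36 and 1.95 in control replicate 1 and the repeated control library. The 12 reads of control replicate 1 placed it among the induced libraries, and the repeated control, with 74 reads, lay below all of them. The means were 3.49 ± 0.942 (SD, n = 3) in induced and 2.65 ± 0.992 (SD, n = 2) in control libraries. The log2 fold change was 0.35 (SE 0.22, 95% interval -0.12 to 0.82), and the adjusted p by limma over all genes was 0.927 (0.372 to 1 over its alternatives). Its size rested on single libraries of both groups: it was 0.16 without induced replicate 1, 0.68 without control replicate 1 and 0.02 without the repeated control library. On the recovered reads it was 0.63 by edgeR and 0.55 by DESeq2. With 0.1 in place of 0.5 added to the values, limma gave 0.40. Why these values differ was not tested.

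LOC107825512 at 48 h had values of 2.63, 2.93 and 1.25 in induced replicates 1, 2 and 3, against 1.96 and 2.27 in control replicate 1 and the repeated control library. Induced replicate 3, with 82 reads, was the lowest of all, and the other induced libraries were the highest. The means were 2.27 ± 0.894 (SD, n = 3) in induced and 2.11 ± 0.221 (SD, n = 2) in control libraries. The log2 fold change was 0.03 (SE 0.25, 95% interval -0.52 to 0.57, adjusted p = 0.997 by limma, 0.707 to 1 over its alternatives). Of the 2 15A-like genes 0 were called, against 0.0127% of the 31565 genes tested at 48 h. Neither had an unadjusted p under 0.05 by limma, edgeR or DESeq2, a count of 0 by each. Over all 31565 genes that p was reached by 1862 with limma, 2244 with edgeR and 556 with DESeq2. With so few of all genes reaching it, nothing is read from the count of 0. The change between times was not tested, because the 4 h libraries chose both genes.

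The SAUR68-like gene LOC107823924 had higher values in the induced than in the 2 distinct control libraries at 48 h. Its values were 1.78, 1.82 and 1.34 in induced replicates 1, 2 and 3, against 1.12 and 0.66 in control replicate 1 and the repeated control library. Induced libraries, with 57 to 88 reads, lay above both controls, with 4 and 25 reads. For the 4 reads of control replicate 1 the exact Poisson 95% interval was 0.305 to 2.86, which reaches past every induced library. The means were 1.65 ± 0.267 (SD, n = 3) in induced and 0.889 ± 0.325 (SD, n = 2) in control libraries, a log2 difference of 0.64 (SE 0.22). It was 0.40 without the repeated control library and 1.15 by edgeR on the recovered reads, a scale without the pseudocount. At 48 h 1 of the 3 genes thus had induced libraries above all controls, against 12.5% of all genes tested, and that gene was chosen in this contrast. In the same libraries the 1 named glandular trichome marker, non-specific lipid-transfer protein 1-like (LOC107775583), stood at 1.31 to 1.88 in induced and 0.839 to 1.11 in control libraries. The 1 named vascular marker, xylem cysteine proteinase 1-like (LOC107804325), stood at 0.732 to 1.22 in induced and 0.158 to 0.559 in control libraries. For both markers the groups did not overlap. The trichome marker was not called by limma, and the vascular marker was under the filter. Both names come from the table of higher genes at 48 h. The summed root markers (27.2 to 36.5 in induced and 21.0 to 35.7 in control libraries) and the plastid share (6.28% to 8.52% of induced and 5.8% to 6.74% of control reads) overlapped at 48 h. The part of these measures in the values of the SAUR68-like gene was not tested.

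The authors' deposited table gave folds of 1.76 and 2.11 at 4 h for LOC107818257 and LOC107825512, and of 2.03 at 48 h for LOC107823924, above the fold of 1.5 at which the shorter tables begin. Outside those tables, the authors' deposited table gave 1.44 and 1.05 at 48 h for the 15A-like genes and 0.984 at 4 h for the SAUR68-like gene. The authors' 48 h folds counted the repeated library as 2 controls. Counted once, the ratio of group means was 1.31 for LOC107818257, 1.07 for LOC107825512 and 1.85 for LOC107823924.

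All libraries were next set on a common scale, counts per 1e6 recovered reads (CPM) after TMM scaling over the 42010 genes in both tables, to follow the genes from 7 to 9 days of age. LOC107818257 stood at 14.8 to 21.0 CPM in induced and 9.62 to 12.1 CPM in control libraries at 4 h. At 48 h it stood at 8.05 to 12.95 CPM in induced libraries, and at 9.52 and 5.525 CPM in control libraries. Its 4 h induced libraries were therefore the highest of the experiment, and the other 3 groups overlapped or adjoined. The log2 difference of 48 h minus 4 h was -0.88 (SE 0.20) in induced and -0.49 (SE 0.22) in control seedlings.

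LOC107825512 had 8.38 to 14.7 CPM in induced and 4.28 to 6.41 CPM in control libraries at 4 h. At 48 h it had 3.55 to 8.3 CPM in induced libraries, and 5.55 and 6.42 CPM in control libraries. The 4 h induced libraries again stood above every other library, by little for the lowest of them, and the other 3 groups overlapped. The log2 difference of 48 h minus 4 h was -0.87 (SE 0.28) in induced and 0.10 (SE 0.31) in control seedlings.

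LOC107823924 followed another course. It had 2.23 to 3.42 CPM in induced and 1.81 to 3.91 CPM in control libraries at 4 h, and at 48 h 3.81 to 5.17 CPM in induced libraries, and 3.17 and 1.87 CPM in control libraries. Its 48 h induced group was the highest by median, although 1 control library at 4 h lay within its range. The log2 difference of 48 h minus 4 h was 0.61 (SE 0.25) in induced and -0.19 (SE 0.28) in control seedlings.

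The induction difference at 48 h minus that at 4 h was -0.38 (SE 0.30) for LOC107818257, -0.97 (SE 0.42) for LOC107825512 and 0.80 (SE 0.38) for LOC107823924 on the log2 scale. These differences share libraries with the contrasts that chose the genes and carry no test. The median over all genes was 0.00 for this difference and -0.01 for each of the differences over time.

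**Figure D2:**
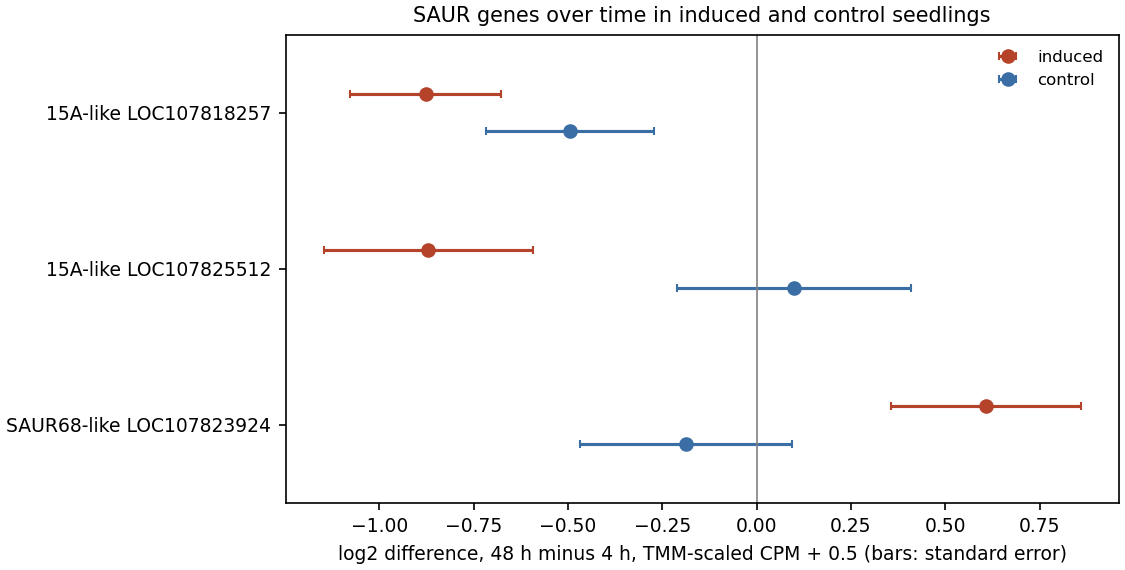
Log2 difference of 48 h minus 4 h in TMM-scaled CPM + 0.5 for each SAUR gene (points, bars are standard errors), in induced and control seedlings. In induced seedlings the 15A-like genes lie at -0.88 and -0.87 and the SAUR68-like gene at 0.61, and in control seedlings the 3 genes lie at -0.49, 0.10 and -0.19.

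The 15A-like genes were also compared with each other within libraries, as the share of their joint reads that fell on LOC107825512, a measure that no scaling between libraries can move. At 4 h the share was 37.0%, 49.9% and 30.1% in induced replicates 1, 2 and 3, from 618 to 924 reads of the pair. It was 33.9% and 39.5% in control replicates 2 and 3, and 30.8% in control replicate 1, where the pair had 13 reads and the exact Clopper-Pearson 95% interval was 9.09% to 61.4%. At 48 h the share was 36.5%, 48.9% and 30.6% in induced replicates 1, 2 and 3, from 230 to 268 reads. It was 36.8% in control replicate 1, from 19 reads, and 53.8% in the repeated control library.

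The shares in induced libraries thus came in the same order at both times and differed between times by about 1 percentage point or less in each replicate number. At 4 h the interval of induced replicate 2 (46.6% to 53.2%) did not touch those of induced replicates 1 (33.9% to 40.2%) and 3 (26.5% to 33.9%). The repeated control library lay, with 45.7% to 61.7%, above control replicate 2 at 4 h, with 29.1% to 38.9%. As groups, induced and control shares overlapped at both times. Set side by side by library number, the share at 48 h was 30.6% in the induced and 36.8% in the control library of number 4, 48.9% and 53.8% for number 3, and 36.5% and 53.8% for number 2, where numbers 2 and 3 of the control are the repeated library. Each induced share was the lower at 48 h, but numbers 2 and 3 were set against the same control library. The intervals overlapped for number 3 (42.7% to 55.05% induced, 45.7% to 61.7% control). The control of number 4, with only 19 reads of the pair, had an interval of 16.3% to 61.6%, which holds the induced share. For number 2 the induced interval (30.3% to 43.1%) lay below that of the control. At 4 h the induced and control shares were 30.1% and 30.8% for number 4, 49.9% and 33.9% for number 3, and 37.0% and 39.5% for number 2. Intervals cover counting error only, and as most low counts were even (68.4% to 74.7% of counts from 1 to 20 outside control replicate 1), a read need not be an independent molecule and the intervals may be too narrow. How reads of closely related copies were divided by the authors' counting is not given in the sources used here.

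**Figure D3:**
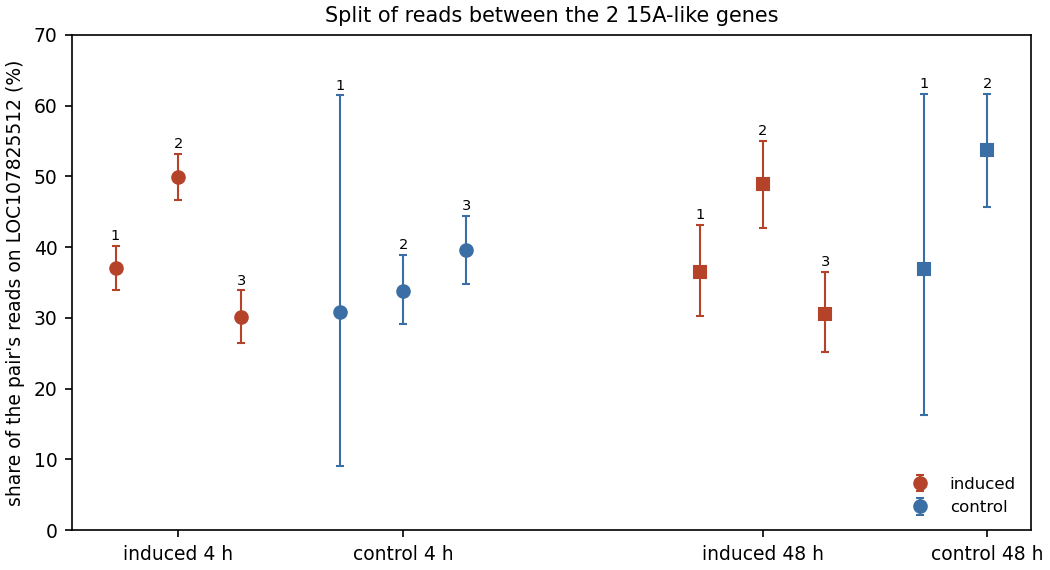
Share of the reads of the 15A-like pair that fell on LOC107825512 in every distinct library (%), with exact Clopper-Pearson 95% intervals and replicate numbers above the bars. Induced replicates 1, 2 and 3 stand at 37.0%, 49.9% and 30.1% at 4 h and at 36.5%, 48.9% and 30.6% at 48 h.

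Of the 8 genes whose deposited name was of the SAUR family, 5 were named in the table of higher genes at 4 h and 3 in that at 48 h. Genes of this family without a deposited name may have been measured, so these 8 are no sample of the family. At 4 h the other 2 15A-like genes were also higher in induced libraries, as their choice required. LOC107808395 had 5.04, 5.45 and 3.84 in induced and 1.39, 2.9 and 2.72 in control libraries, a log2 difference of 0.93 (SE 0.21). LOC107764970 was barely detected, at 0.478, 0.384 and 0.78 in induced and 0, 0 and 0.257 in control libraries, and did not reach the filter of a value of 1 in 3 libraries. SAUR72-like (LOC107787254) had a log2 difference of 0.55 (SE 0.19).

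In the time point that did not name them, values of the relatives are on the scale of that table and are not set against their 4 h values. For LOC107818257, a value of 6.52 stood for 9.8 CPM in control replicate 3 at 4 h. Its value of 1.95 in the repeated control library at 48 h stood for 5.525 CPM. A filter value of 1 thus asked for more CPM at 48 h than at 4 h. At 48 h LOC107808395 had 0.688, 1.31 and 0.488 in induced libraries, and 0.839 and 1.9 in control libraries. SAUR72-like (LOC107787254) had 0.407, 0.383 and 0.595 in induced libraries, and 0.559 and 0.74 in control libraries. For both genes the groups overlapped at 48 h, and neither passed the filter there. Of the 5 genes named at 4 h, 2 could be tested at 48 h, the 15A-like pair described above, and 0 were called.

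Of the genes named at 48 h, SAUR32-like (LOC107775518) had 3.38, 2.34 and 2.71 in induced libraries, and 1.12 and 1.37 in control libraries, a log2 difference of 0.92 (SE 0.20). At 4 h it stood at 0.478, 0.47 and 0.54 in induced and 0.697, 0.387 and 1.13 in control libraries, with overlap and below the filter. The second SAUR68-like gene, LOC107827716, had 0.626, 0.54 and 0.427 in induced libraries, and 0.28 and 0.37 in control libraries at 48 h. At 4 h it had 0.55, 0.47 and 0.6 in induced and 0.697, 0.773 and 0.616 in control libraries, all induced below all controls and below the filter. Its value in control replicate 1 was that of 1 read at both times, 0.697 at 4 h and 0.28 at 48 h. Of the 3 genes named at 48 h, 1 could be tested at 4 h, LOC107823924, and it was not called, against 0.352% of all genes tested.

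**Figure D4:**
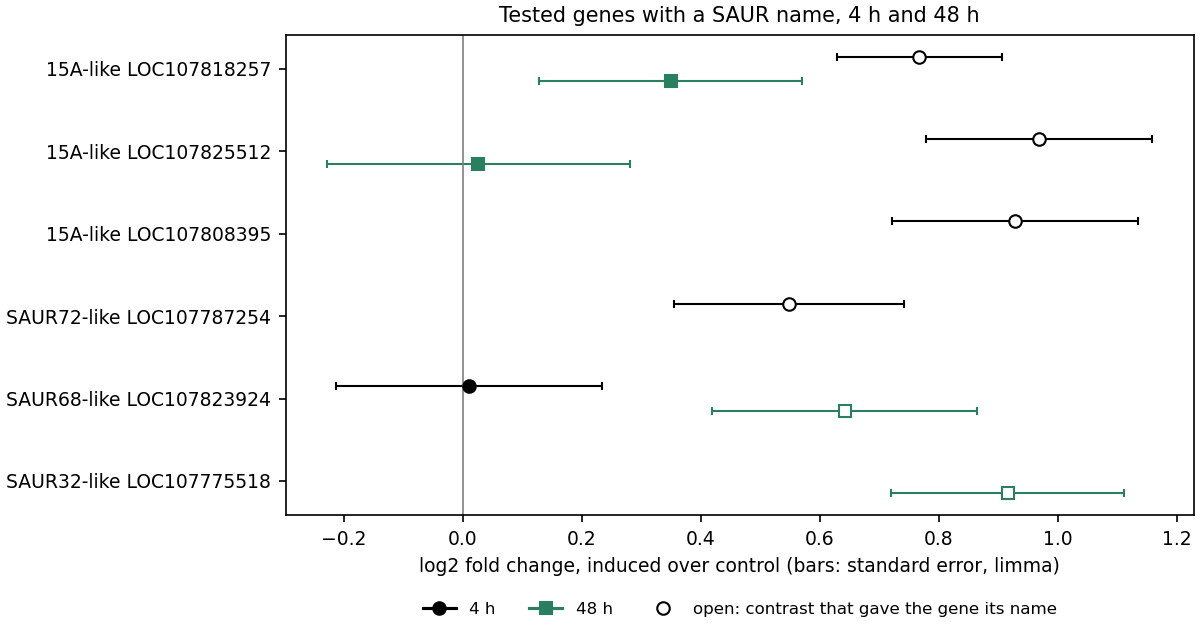
Log2 fold change of induced over control at 4 h and 48 h for the 6 genes with a SAUR name that passed the filter at either time, on the log2(value + 0.5) scale with standard errors as bars. Open symbols mark the contrast whose table gave the gene its name; the filled symbols, at 0.35, 0.03 and 0.01, are the values that had no part in the choice.

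Other steps of the pathway had few names. IAA26-like (LOC107782639), an Aux/IAA repressor, was under the filter at both times. Plasma membrane ATPase 3-like (LOC107802334), a proton pump, had a log2 fold change of -0.23 at 4 h (SE 0.20, adjusted p = 0.984 by limma). The 3 named alpha-expansins had log2 fold changes at 4 h of -0.57 (LOC107792895), -0.15 (LOC107802017) and 0.43 (LOC107802488). By limma 0 of the 3 were called and 2 had an unadjusted p under 0.05, edgeR gave the same counts, and by DESeq2 both counts were 0. Over all 37238 genes an unadjusted p under 0.05 was reached by 2138 with limma, 2499 with edgeR and 674 with DESeq2. These 5 genes were named in the table of higher genes at 48 h. No gene with a deposited name matched auxin response factors, GH3 synthetases, auxin receptors, auxin synthesis, auxin transport or clade D phosphatases.

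The gene model of LOC107823924 overlaps that of LOC107812986 in the RefSeq annotation of assembly ASM71507v2. Neither the build used for counting nor whether reads were counted by strand is given in the sources used here. Whether the gene models overlap in the authors' build is thus not known, and reads of any overlap cannot be assigned with certainty. LOC107812986 had 0.478, 0.491 and 0.3 in induced and 0.697, 0.773 and 0.539 in control libraries at 4 h. The control value of 0.697 rested on 1 read. LOC107812986 was not analysed at 48 h. Among near neighbours chosen after their values were seen, LOC107812997 had log2 fold changes of 0.16 (SE 0.24) at 4 h and 0.35 (SE 0.21) at 48 h, and LOC107818726 of -0.01 (SE 0.16) and 0.05 (SE 0.22). Neither was called at either time. The 15A-like pair was not matched in that annotation.

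The genes with the most similar course over the 11 distinct libraries, by Pearson's r of log2(CPM + 0.5) among 31382 genes, had no name. They were LOC107820634 for LOC107818257 (r = 0.932), LOC107825075 for LOC107825512 (r = 0.936) and LOC107780948 for LOC107823924 (r = 0.906). Over the 9 libraries without control replicate 1 these values were 0.956, 0.943 and 0.912. They are descriptions of genes picked as the highest of many, and the libraries share groups and times. LOC107820634 had log2 fold changes of 0.24 at 4 h and 0.12 at 48 h, LOC107825075 of 0.48 and 0.00, and LOC107780948 of 0.09 and 0.41.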

How the data were processed

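Paired-end reads of 150 bp, at least 38 M per sample per the labels' protocols, were processed by the authors. Their deposited per-library values are a signal: each is a whole multiple of 1 step of its library (100% of values within 0.01), as found from the values. The deposited fold columns are ratios of group means, and the deposited p-value columns are unadjusted. edgeR is named per the submitters' processing notes. No source used here gives the aligner, counter or build. A further 12 columns of per-sample values repeated in the shorter tables were not used.

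Genes with an inflated entry in any library (above 5000 and 20-fold over the gene's median, 4 at 4 h and 14 at 48 h) were left out. They held from 0.0767% of reads (control replicate 3 at 4 h) to 69.33% (the repeated control library at 48 h). Recovered reads are those left after this removal. The tests first written down allowed for raw counts; as the values are not counts, limma 3.58.1 (intensity trend, robust) was run in R 4.3.3 on log2(value + 0.5) for genes at 1 or more in 3 libraries, with Benjamini-Hochberg adjustment over all genes and calls at 0.05. edgeR 4.0.16 and DESeq2 1.42.0 were run on recovered reads, which came out whole for 100% of values; edgeR called 93 genes at 4 h and 2 at 48 h. The limma and edgeR fits were tested on simulated data. The planted changes were larger, and in genes of higher value, than those of the SAUR genes at 48 h. That run thus cannot show how well changes like theirs are found.

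Library numbers in the sample descriptions were used to pair the samples only in alternative runs with a replicate block. The main fits, with their SEs and adjusted p, had no block. Deviations from group means correlated at 0.182, 0.216 and 0.164 for libraries of equal number at 4 h (19703 genes). At 48 h (11369 genes) induced numbers 2 and 3 correlated at 0.113 and 0.472 with the repeated control library. Number 4 correlated at 0.535 with control number 4. With 2 distinct controls, their deviations mirror each other. The 3 genes and all lists were chosen with earlier results of these data known. The plan was to test all 3 genes at 48 h and none at 4 h; for the SAUR68-like gene this was turned round, since its name came from the 48 h table. Genes named in the text were the 3 genes, called or matched members of the lists, genes with a SAUR name, and the nearest pattern of each; neighbours were added later.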

Additional observations from a re-analysis of the deposited data

How the results depend on the processing

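No test of a SAUR gene changed its side of the threshold under any alternative run (17 for each 15A-like gene at 48 h, 15 for the SAUR68-like gene at 4 h). LOC107818257 at 48 h stayed above 0 throughout (0.02 to 0.68 with single libraries left out, 0.63 by edgeR and 0.55 by DESeq2). LOC107825512 at 48 h, at 0.03, changed sign by edgeR (-0.0048), on TMM-scaled CPM (-0.0028) and with the repeated library counted as 2 samples (-0.0026). With a replicate block it was -0.157 by library number with the repeated library as number 2, -0.0916 as number 3, and by title number 0.33 as number 2 and -0.157 as number 3. With single libraries left out it ranged from -0.16 to 0.33, and LOC107823924 at 4 h from -0.23 to 0.20. The 4 h differences ranged from 0.67 to 0.91 for LOC107818257 and from 0.80 to 1.18 for LOC107825512, and the 48 h difference of LOC107823924 from 0.40 to 0.88. That difference was 1.15 by edgeR and 1.11 by DESeq2. The causes were not tested.

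The number of genes called moved more. At 4 h it was 131, and 376 with the replicate block by library number, 242 by title number, 52 with both times in one fit, and 85 to 156 with single libraries left out. At 48 h it was 4, and 11 with a pseudocount of 1, 2 by edgeR, 13 by DESeq2 and 10 with both times in one fit. The replicate block gave 646 and 429 by library number (repeated library as number 2 or 3) and 148 and 1 by title number, and leaving out single libraries gave 3 to 61. Pairing changed no call of a SAUR gene that was tested. Counts for a SAUR family set by sequence or by unbiased names were not run, as no protein table was used here.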
